A study of Mus musculus with 6 samples.

Results

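The tumour necrosis factor (TNF) superfamily, its receptors and the receptor-associated TRAF adaptors were examined in RNA from infarcted mouse myocardium. The members are all rows of the deposited table whose symbol is Tnf, begins with Tnfsf or Tnfrsf, or is Traf with a single digit. They number 38 of 16199 gene symbols, of which 35 had a mean value of at least 1 over the 6 libraries and were tested with 14025 genes in all. The remaining 3, Tnfrsf8, Tnfrsf17 and Tnfsf18, stayed below that level. By role, 11 were ligands, 19 were receptors, 7 were TRAF adaptors and 1, Tnfsf13os, was an RNA antisense to Tnfsf13.

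All 6 libraries came from mouse myocardium after myocardial infarction, made by tying off the left anterior descending branch and sampled at 7 days. Of these, 3 were labelled wild type and 3 ITIH5 knockdown. Itih5 encodes a secreted protein that binds hyaluronan, and the study asked whether it acts on scarring after infarction through the immune response. How the knockdown was made, like the strain and age of the mice, is not given in the sources used here, and no unoperated heart was among these samples. Itih5 itself was at 9.73, 13.1 and 17.2 in wild type, against 18.4, 10.5 and 19.96 in the labelled knockdown libraries. The groups overlapped and the labelled knockdown was not the lower one, so every direction below refers to labels only. Values are on a scale close to TPM (transcript abundance corrected for gene length) that the authors had adjusted between libraries. The labels name no separate animals, so each p-value measures the spread among 6 libraries only, and that spread may be technical.

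TNF superfamily ligands are mostly membrane proteins that act as trimers and can be shed from the cell surface. Their receptors fall into those with a cytoplasmic death domain, which recruit adaptors such as TRADD and FADD, and those that bind TRAF proteins directly. TRAF proteins pass the signal on to NF-kB and to MAP kinases, and the outcome ranges from inflammation and survival to cell death. After infarction, TNF comes largely from myeloid cells, and its receptors TNFR1 (Tnfrsf1a) and TNFR2 (Tnfrsf1b) are known to have different roles in the injured heart.

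With limma, 0 of the 14025 genes (0%) passed Benjamini-Hochberg adjustment at 0.05, members included, while 919 were lower and 1162 higher at an unadjusted p under 0.05. Without labelled knockdown replicate 3 the adjusted count was 13, without wild-type replicate 2 it was 2, and with each library divided by its own rounding step it was 22, with 0 members among them in each case. Among the 35 tested members, 24 had a lower mean and 11 a higher mean in the labelled knockdown libraries, where 49.2% of all tested genes had a lower mean. The median of their log2 differences, taken as labelled knockdown minus wild type, was -0.10, against 0.005 over all tested genes. With mitochondrial genes left out and the rest rescaled, 19 of the 35 had a lower mean, against 41.6% of all genes. At an unadjusted p under 0.05, 5 members (14.3%) were lower, against 6.55% of all tested genes, and 1 member (2.86%) was higher, against 8.29%. The 5 were Tnfrsf1b, Tnfrsf26, Tnfsf11, Tnfrsf13b and Tnfrsf13c, and the 1 was Tnfrsf25. Without wild-type replicate 1 only Tnfsf11 kept that unadjusted level among the lower ones, where 2.41% of all genes did, and without wild-type replicate 3 only Tnfrsf1b, where 2.75% did. Without labelled knockdown replicate 1 there were 3 (Tnfrsf1b, Tnfrsf26 and Tnfsf11), against 3.87% of all genes, and the median of the members was -0.03. The count thus fell in the whole table as it fell among the members. Tnfrsf25 kept it in each of the 6 fits that left out 1 library.

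The values of the groups did not overlap for 4 members: Tnfrsf1b, Tnfrsf26 and Tnfsf11 were lower (8.57% of members, against 9.88% of all tested genes) and Tnfrsf25 was higher (2.86%, against 12.6%). On the deposited scale both shares lie below the background. The count of lower members without overlap was 10 of 35 after division by the rounding step, against 21.1% of all genes, and 10 of 35 without wild-type replicate 2, against 18.4%. The background itself shifts with the scaling. With each library rescaled to a sum of 1000000, 29 of the 35 members and 67.7% of all genes had a lower mean. At the unadjusted threshold 9.92% of all genes were lower and 3.25% higher, the median over all genes was -0.13 and that of the members -0.19.

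Promoters are shown for 4 of the 6 members past the unadjusted threshold, those whose RefSeq start is also the GENCODE start, so that a reader can see the sequence in front of the genes that stood furthest apart. Each line gives the 250 bases before the RefSeq start, 5′ to 3′ on the gene's own strand, in build GRCm38.p6, the patched form of mm10. Capitals mark matches on either strand to a loose form of the NF-kB motif, which is GGG and CC with 5 unspecified bases between them, and to CCGGAAG, a motif bound by ETS factors. Overlapping matches run together in the capitals.
Tnfrsf1b (chr4:145246871-145247120, minus strand): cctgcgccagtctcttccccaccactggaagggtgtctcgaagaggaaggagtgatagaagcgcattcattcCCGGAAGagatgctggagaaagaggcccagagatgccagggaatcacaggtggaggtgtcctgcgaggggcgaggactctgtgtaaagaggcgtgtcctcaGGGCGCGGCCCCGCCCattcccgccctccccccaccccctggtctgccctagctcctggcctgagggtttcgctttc
Tnfrsf25 (chr4:152115684-152115933, plus strand): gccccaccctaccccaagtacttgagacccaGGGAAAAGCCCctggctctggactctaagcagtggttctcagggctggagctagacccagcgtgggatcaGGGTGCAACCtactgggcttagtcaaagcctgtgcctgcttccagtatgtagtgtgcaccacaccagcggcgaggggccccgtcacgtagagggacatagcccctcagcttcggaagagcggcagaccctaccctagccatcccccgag
Tnfsf11 (chr14:78308044-78308293, minus strand): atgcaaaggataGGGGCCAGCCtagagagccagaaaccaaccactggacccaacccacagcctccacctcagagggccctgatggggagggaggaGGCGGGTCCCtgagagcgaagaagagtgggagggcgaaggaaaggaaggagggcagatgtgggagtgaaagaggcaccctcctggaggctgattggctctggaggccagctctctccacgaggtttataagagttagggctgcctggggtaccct
Tnfrsf13b (chr11:61126505-61126754, plus strand): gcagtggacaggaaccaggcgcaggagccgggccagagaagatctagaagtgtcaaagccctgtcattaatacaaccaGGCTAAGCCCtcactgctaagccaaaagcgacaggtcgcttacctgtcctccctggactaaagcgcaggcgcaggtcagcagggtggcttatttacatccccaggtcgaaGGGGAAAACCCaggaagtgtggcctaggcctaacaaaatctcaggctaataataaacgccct
The Tnfrsf1b promoter held 3 overlapping matches to the loose motif and 1 to CCGGAAG, and the other windows held no CCGGAAG. The Tnfrsf25 window held 3 matches to the loose motif, of which 2 overlap, as did the window of Tnfrsf13b, and that of Tnfsf11 held 2. None of these 4 windows held the stricter NF-kB consensus.

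RefSeq gave promoters for 30 of the 38 members, in 33 windows. The loose motif was in 22 of the 33 (66.7%), against 45.8% of all 32851 windows of that length, and the NF-kB consensus, each match of which also fits the loose motif, was in 4 (12.1%), those of Tnfrsf25 at another start, Tnfrsf8, Tnfrsf9 and Traf3, against 5.0%. CCGGAAG was in 5 (15.2%), those of Tnfrsf1a, Tnfrsf1b, Tnfrsf12a, Traf4 and Traf7, against 6.91%. TATAAA, on either strand, was in 5 (15.2%), against 12.4%, and in the Tnfsf11 window it lies on the strand opposite to the one printed. Each of the NF-kB consensus and CCGGAAG occurred before genes with lower and genes with higher means.

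Most of the family was expressed at a low level. On the TPM-like scale, 5 members had a mean of at least 50, 17 lay between 5 and 50, 13 between 1 and 5, and 3 under 1, and the median of the members was 8.25 against 11.8 over all genes. Tnfrsf12a (mean 181.9), Tnfrsf1a (171.1), Tnfsf12 (89.98) and Tnfrsf1b (61.7) together made up 62.9% of the summed level of the 38. The deposited values move in steps of 0.889 to 1.163, depending on the library, so the 13 members between 1 and 5 rest on a few steps and can show only large differences.

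**Figure D1:**
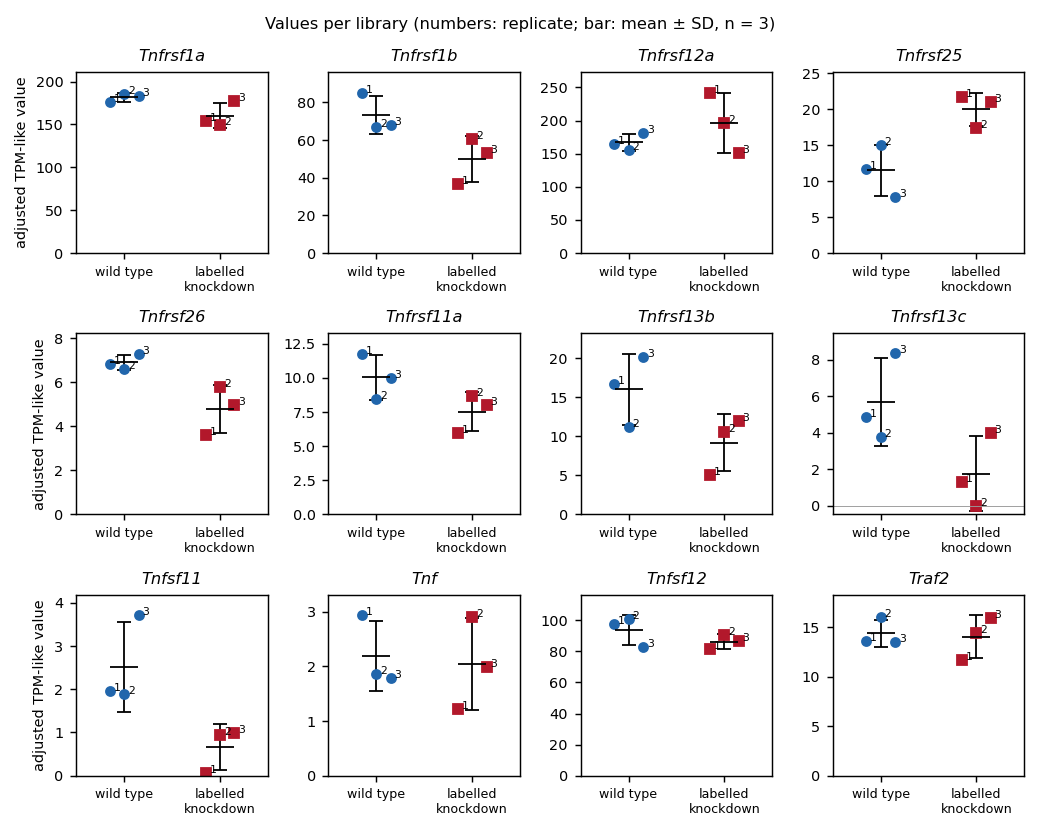
Adjusted TPM-like value of 12 members in each library, wild type (circles) and labelled knockdown (squares), with the replicate number beside each point and the mean ± SD (n = 3) as a bar. The groups do not overlap for Tnfrsf1b, Tnfrsf26 and Tnfsf11 (lower in the labelled knockdown libraries) and Tnfrsf25 (higher), and the other 8 panels overlap.

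Both TNF receptors were among the most abundant members. Tnfrsf1b encodes TNFR2, which binds TRAF2 and is carried chiefly by leukocytes and endothelium, and lies on chromosome 4 (145213463 to 145246870, minus strand, protein coding, mm10). It was at 85.1, 66.7 and 67.96 in wild type (73.2 ± 10.3, SD, n = 3) and at 36.6, 60.7 and 52.9 in the labelled knockdown libraries (50.1 ± 12.3, SD, n = 3). Every labelled knockdown library lay below every wild-type one, with replicate 1 of that group the lowest and wild-type replicate 1 the highest. The log2 difference was -0.56 (SE 0.20, 95% interval -1.02 to -0.10), with an unadjusted p of 0.0235 and a limma adjusted p of 0.302. Without wild-type replicate 1 the difference was -0.45 (unadjusted p of 0.0833), and leaving out labelled knockdown replicate 1 gave -0.36 (0.0400).

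Macrophage markers moved with Tnfrsf1b. All 10 of the listed macrophage genes had a lower mean in the labelled knockdown libraries, their summed level ran from 8271 to 11010 in wild type, against 3866 to 7710 in the labelled knockdown libraries, and no marker was at 0. Heart muscle genes went the other way, with 10 of 10 means higher and sums of 6945 to 8317 against 7100 to 23933, the highest in replicate 1. With a covariate for the heart muscle score, the difference of Tnfrsf1b was -0.34 (unadjusted p of 0.122), and no member was lower at the unadjusted threshold, where 2.34% of all genes were. In RNA of whole tissue, fewer cells of a type and less RNA per cell cannot be told apart, and the part that macrophage content has in these differences was not tested.

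Tnfrsf1a encodes TNFR1, the death-domain receptor that most cells carry (chromosome 6, 125349362 to 125362484, plus strand). Its values were 176, 186 and 183 in wild type, against 155, 149 and 178 in the labelled knockdown libraries. On the deposited scale, replicate 3 of the labelled knockdown group lay inside the wild-type range and the other 2 lay below it. The log2 difference was -0.18 (SE 0.10, 95% interval -0.42 to 0.06, limma adjusted p = 0.406), and -0.26 (unadjusted p of 0.0425) without replicate 3. The ratio of Tnfrsf1b to Tnfrsf1a within a library, which no rescaling of a library alters, was 0.484, 0.359 and 0.371 in wild type, against 0.237, 0.407 and 0.298 in the labelled knockdown libraries, and so overlapped.

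The other death-domain receptors were Tnfrsf25, Tnfrsf10b and Tnfrsf21. Tnfrsf25 encodes DR3, the receptor of the ligand TL1A, which is best known on T cells (chromosome 4, 152115934 to 152120119, plus strand). It was at 11.7, 14.97 and 7.85 in wild type (11.5 ± 3.56, SD, n = 3) and at 21.7, 17.4 and 20.96 in the labelled knockdown libraries (20.0 ± 2.31, SD, n = 3). All 3 labelled knockdown libraries lay above all 3 wild-type ones, the nearest pair being 2.39 apart. The log2 difference of 0.78 (SE 0.22, 95% interval 0.28 to 1.29) had the smallest p among the members, an unadjusted p of 0.00796 and a limma adjusted p of 0.296, at place 342 of the 14025 genes. Over the 6 fits that each left out 1 library the difference ran from 0.56 (without wild-type replicate 3) to 0.98 (without wild-type replicate 2). Of 8 tested markers of T and natural killer cells, 7 had a lower mean, and their summed level overlapped at 46.8 to 66.7 against 29.0 to 70.9. Among them Cd3e lay between 0.95 and 2.99, near the floor of the scale. The part of T cell content in the difference of Tnfrsf25 was not tested.

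Tnfrsf10b, the single mouse death receptor for the ligand TRAIL, was at 11.7 to 12.2 in wild type, against 11.5 to 13.97 in the labelled knockdown libraries, a log2 difference of 0.09 (95% interval -0.15 to 0.33). Tnfrsf21, which encodes DR6, had a difference of -0.11 (95% interval -0.34 to 0.12). For both, the interval on the deposited scale leaves room for only a modest difference in either direction. After division by the rounding step, Tnfrsf21 was lower at the unadjusted threshold and without overlap, and Tnfrsf10b had a lower mean. With each library rescaled to a common sum, Tnfrsf21 was lower without overlap and Tnfrsf10b again had a lower mean. With mitochondrial genes left out, Tnfrsf21 was in neither of these calls and Tnfrsf10b was not among the lower means.

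**Figure D2:**
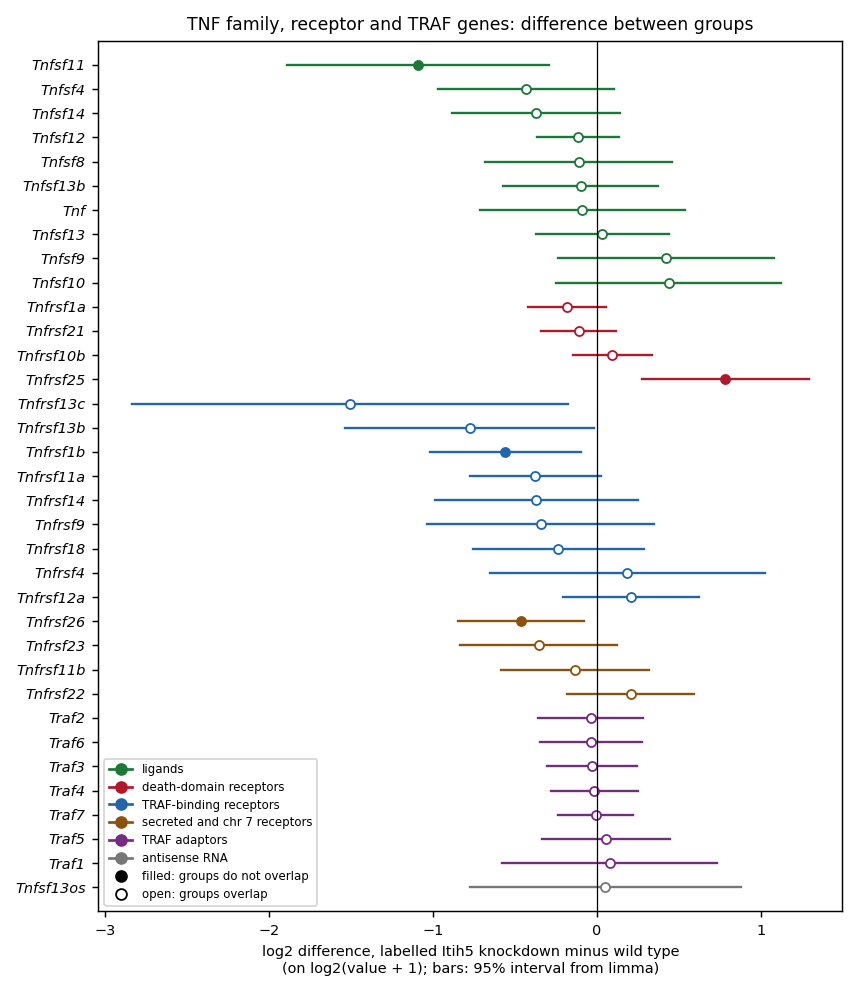
Log2 difference, labelled knockdown minus wild type, with its 95% interval (limma, on log2(value + 1)) for the 35 tested members, ordered by role. Filled points mark the 4 members whose groups do not overlap, and the intervals of the TRAF adaptors all cross 0.

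Receptors that bind TRAF proteins without a death domain had the lowest median among the 5 roles. Of 9 tested, 7 had a lower mean, against 49.2% of all tested genes, and their median log2 difference was -0.37, against 0.005. Besides Tnfrsf1b, the 3 named below with the most negative differences are receptors of B cells and of the osteoclast and macrophage lineage.

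Tnfrsf13b encodes TACI, a receptor for the B cell ligands BAFF and APRIL (chromosome 11, 61126755 to 61149372, plus strand). It was at 16.6, 11.2 and 20.2 in wild type, against 5.03, 10.6 and 11.97 in the labelled knockdown libraries. Wild-type replicate 2 lay below labelled knockdown replicate 3, so the groups overlapped. The log2 difference was -0.78 (SE 0.32, 95% interval -1.54 to -0.02), with a limma adjusted p of 0.331. Leaving out any one of wild-type replicates 1 and 3 or labelled knockdown replicates 1 and 2 brought the unadjusted p above 0.05, and without labelled knockdown replicate 1 the difference was -0.44.

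Tnfrsf13c encodes the BAFF receptor that mature B cells need to survive (chromosome 15, 82221743 to 82224369, minus strand). Its values were 4.89, 3.75 and 8.38 in wild type, against 1.29, 0 and 3.99 in the labelled knockdown libraries, and labelled knockdown replicate 3 lay above wild-type replicate 2. In steps of each library these are 5, 4 and 9 against 1, 0 and 4. The log2 difference was -1.51 (SE 0.56, limma adjusted p = 0.313), and without labelled knockdown replicate 2, the library listed at 0, it was -0.92. The third receptor of this ligand pair, Tnfrsf17 (BCMA of plasma cells), was at 1.00 or less in every library and was not tested.

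All 8 B cell markers had a lower mean in the labelled knockdown libraries, as both receptors did. Their sums were 1975 to 3383 in wild type, against 542, 513 and 2118 in labelled knockdown replicates 1, 2 and 3. Pax5 was at 0 in at least 1 library. Tnfrsf13b followed these markers only in part. In labelled knockdown replicate 2 it was at 10.6 with a marker sum of 513, and in wild-type replicate 2 at 11.2 with 1975. The B cell score was low in labelled knockdown replicates 1 and 2 and not in replicate 3. Epicardial and mesothelial markers were low in the same 2 libraries, with sums of 89.6 to 132 in wild type, against 20.1, 36.3 and 181 in labelled knockdown replicates 1, 2 and 3. The part of B cell content in the differences of Tnfrsf13b and Tnfrsf13c was not tested.

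Tnfrsf11a encodes RANK, the receptor of the osteoclast-inducing ligand RANKL, and is carried by cells of the monocyte lineage (chromosome 1, 105780718 to 105847981, plus strand). Its values were 11.7, 8.43 and 9.99 in wild type, against 5.96, 8.67 and 7.98 in the labelled knockdown libraries, overlapping at wild-type replicate 2. The log2 difference of -0.38 (95% interval -0.78 to 0.03) had a limma adjusted p of 0.351. Its ligand gene Tnfsf11 lies on chromosome 14 (78277445 to 78308043, minus strand) and was barely present, at 1.96, 1.88 and 3.71 in wild type, against 0.06, 0.95 and 1.00 in the labelled knockdown libraries. In rounding steps that is 2, 2 and 4 against 0, 1 and 1, with a gap between the groups of about 1 step. The fitted log2 difference was -1.095 (SE 0.34, limma adjusted p = 0.298), and without wild-type replicate 3 it was -0.87 with an unadjusted p of 0.0565.

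The secreted decoy of the same axis, Tnfrsf11b (osteoprotegerin), which binds RANKL and TRAIL, was the more abundant gene (chromosome 15, 54250619 to 54278484, minus strand). Its values were 13.7, 15.1 and 19.96 in wild type, against 11.9, 18.3 and 13.97 in the labelled knockdown libraries. The groups overlapped, with a log2 difference of -0.13 (95% interval -0.58 to 0.31) and a limma adjusted p of 0.738.

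Tnfrsf12a encodes Fn14, the small receptor of the ligand TWEAK that injured tissue is known to induce (chromosome 17, 23675445 to 23677468, minus strand). It was the most abundant member, at 165, 156 and 181 in wild type, against 242, 196 and 151 in the labelled knockdown libraries. Replicates 1 and 2 of that group lay above all wild-type libraries and replicate 3 lay below them. The log2 difference was 0.21 (SE 0.18, 95% interval -0.21 to 0.62, limma adjusted p = 0.561), it was 0.06 after rescaling to a sum of 1000000 and -0.05 with a covariate for the heart muscle score, and it was 0.38 (unadjusted p of 0.0298) without labelled knockdown replicate 3 and 0.04 without replicate 1. The ligand gene Tnfsf12 was at 97.7, 101 and 82.95 against 81.4, 90.6 and 86.8, a log2 difference of -0.11 (95% interval -0.36 to 0.13).

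Receptors of T cell costimulation lay near the floor of the scale. Tnfrsf4 (OX40) ranged from 1.77 to 5.99 over the 6 libraries, Tnfrsf9 (4-1BB) from 0.94 to 3.67 and Tnfrsf18 (GITR) from 1.20 to 2.83, and the 95% interval of each difference crossed 0. Exons of Tnfrsf18 overlap those of the antisense RNA Gm16008, which had the higher mean (5.10 against 1.95) and a log2 difference of 0.73 against -0.24, so reads of the pair may not be told apart. Tnfrsf8 (CD30) stayed at or under 1.00. Tnfrsf14 (HVEM), which binds LIGHT and BTLA, was at 5.86, 5.63 and 7.32 in wild type, against 4.68, 2.85 and 6.99 in the labelled knockdown libraries, with a log2 difference of -0.37 (95% interval -0.99 to 0.25) and -0.63 without labelled knockdown replicate 3 (unadjusted p of 0.0247).

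The neighbouring receptor genes Tnfrsf26, Tnfrsf22 and Tnfrsf23 on chromosome 7 span 143607659 to 143685872 on the minus strand. Tnfrsf22 and Tnfrsf23 encode decoy receptors of TRAIL that lack a signalling tail. Tnfrsf26 was at 6.84, 6.59 and 7.29 in wild type, against 3.62, 5.78 and 4.99 in the labelled knockdown libraries, which in steps is 7, 7 and 8 against 3, 6 and 5. The groups did not overlap, by a gap of 0.807, which is under 1 step. The log2 difference was -0.46 (SE 0.16, 95% interval -0.85 to -0.08), with a limma adjusted p of 0.303, and -0.31 without labelled knockdown replicate 1. Tnfrsf23 had a difference of -0.36 (95% interval -0.84 to 0.12) and Tnfrsf22 one of 0.21 (95% interval -0.18 to 0.59), so the 3 neighbours did not share 1 direction. For read counting, use of strand is not given in the sources used here, and exons of Tnfrsf26 and Tnfrsf23 overlap those of the antisense RNA E230032D23Rik, whose values were 0.998 or less in every library.

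The ligands were mostly near the limit of what the values resolve. Of 10 tested, 7 had a lower and 3 a higher mean, with a median log2 difference of -0.11. Over all tested genes 49.2% had a lower mean. Tnf itself (chromosome 17, 35199381 to 35202007, minus strand) was at 2.93, 1.86 and 1.79 in wild type, against 1.22, 2.90 and 2.00 in the labelled knockdown libraries, that is at 3, 2 and 2 steps against 1, 3 and 2. These values overlapped throughout, and the 95% interval of the log2 difference, -0.71 to 0.54, is wide (limma adjusted p = 0.878). Tnfsf4, Tnfsf8, Tnfsf13b and Tnfsf14 lay between 0.93 and 2.94 in every library, and Tnfsf9 between 1.93 and 5.99.

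Tnfsf10, Tnfsf12 and Tnfsf13 were above that range. Tnfsf10, which encodes TRAIL, was at 7.80, 7.46 and 11.7 in wild type, against 19.3, 8.61 and 11.0 in the labelled knockdown libraries. The groups overlapped and replicate 1 of the labelled knockdown group stood highest, with a log2 difference of 0.44 (95% interval -0.25 to 1.12) that was 0.13 without that library. Tnfsf13 (APRIL, a ligand of TACI and BCMA) had a difference of 0.03 (95% interval -0.37 to 0.44). Tnfsf12 and Tnfsf13 lie next to each other on chromosome 11 and share exons with the fused gene Tnfsfm13, and Tnfsf13 also with the antisense RNA Tnfsf13os, so how reads were divided among them is uncertain.

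On the deposited scale, the log2 differences of the 7 TRAF adaptors, all tested, lay between -0.04 and 0.08. Signs and sizes depend on the scaling: 5 were negative as deposited, 7 with each library rescaled to a sum of 1000000 (from -0.17 for Traf2 to -0.05 for Traf1), and 0 with mitochondrial genes left out. Traf2, which links TNFR1 and TNFR2 to ubiquitin ligases, was at 13.7, 15.99 and 13.5 in wild type, against 11.7, 14.5 and 15.97 in the labelled knockdown libraries. Traf3, a brake on the alternative NF-kB pathway, was at 10.7, 9.36 and 11.8 against 10.5, 9.61 and 10.98. Labelled knockdown replicate 1 lay below every wild-type value of Traf2, and the labelled knockdown values of Traf3 lay within the wild-type range.

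Traf1, itself an NF-kB target, was the most variable adaptor, at 7.78, 12.2 and 8.12 against 7.04, 8.68 and 14.97, with a 95% interval of -0.58 to 0.73. Its log2 difference was 0.29 without labelled knockdown replicate 1, -0.21 without labelled knockdown replicate 3 and 0.445 with a covariate for the heart muscle score. Traf6, which also serves Toll-like and interleukin 1 receptors, was at 8.80, 6.54 and 8.13 against 7.02, 7.70 and 7.98. Traf5 was at 12.7, 15.97 and 12.6 against 12.8, 12.5 and 17.96. The highest Traf1 and Traf5 values were both in labelled knockdown replicate 3.

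Traf4, an adaptor known mainly from epithelia and development, was at 16.6, 14.0 and 16.3 against 14.0, 15.4 and 16.97. Traf7, which has a WD40 domain in place of the usual TRAF domain, was the most abundant adaptor, at 49.8, 53.5 and 50.5 against 52.1, 46.2 and 54.9. Its 95% interval of -0.24 to 0.22 was the narrowest of the adaptors. For Traf2, Traf3, Traf4 and Traf6 the intervals on the deposited scale stayed within 0.36 of 0 in either direction.

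**Figure D3:**
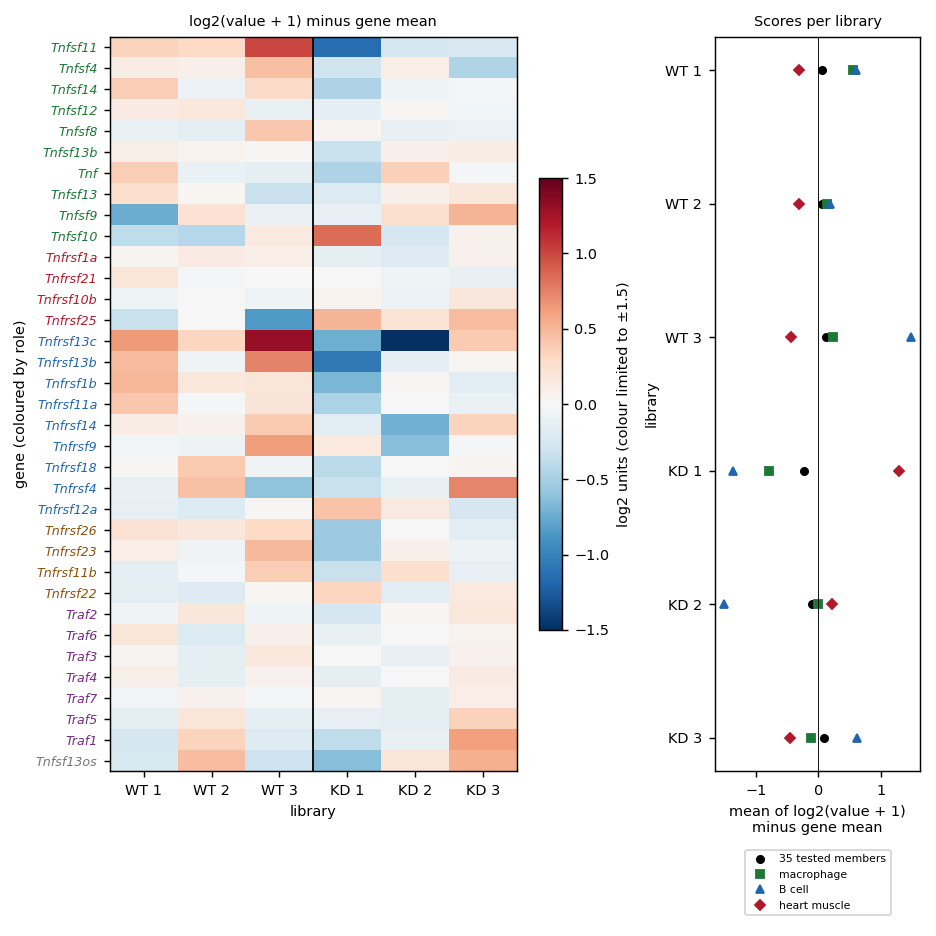
Left, log2(value + 1) minus the gene's mean over the 6 libraries for the 35 tested members (WT, wild type; KD, labelled knockdown; number, replicate); right, the mean of these deviations per library for the members and for 3 marker lists. The member score is lowest in labelled knockdown replicate 1 (-0.22), the library with the lowest macrophage and the highest heart muscle score.

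By library, the members did not fall into 2 clean groups. Labelled knockdown replicate 1 held the lowest value for 16 of the 35 tested members and the highest for 4, and wild-type replicate 3 held the highest for 11. Labelled knockdown replicate 3 held the highest value for 9 members, more than wild-type replicates 1 (7) or 2 (4). These counts were not made over all tested genes, so they have no background beside them. Labelled knockdown replicate 1 also stood apart in the whole table, with 1077 values above 0 and under 0.2, against 0 in each other library. The mean deviation of the members was 0.05, 0.05 and 0.13 in wild type, against -0.22, -0.10 and 0.10 in the labelled knockdown libraries, so the groups overlapped. Mitochondrially encoded genes took 10.9% to 13.8% of the summed values in wild type, against 32.6%, 14.8% and 20.2% in the labelled knockdown libraries.

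Superfamily genes that carry other names were also examined. Of 9 tested, 6 had a lower and 3 a higher mean (median log2 difference -0.01), where 49.2% of all tested genes had a lower mean. At the unadjusted threshold 0 were called in either direction. The abundant ones were the lymphotoxin receptor gene Ltbr, at 90.8, 84.5 and 77.6 against 77.8, 80.9 and 91.8, and the death receptor gene Fas, at 53.7, 52.6 and 43.1 against 45.6, 70.5 and 44.9, and both overlapped. Ltb, the lymphotoxin beta gene of lymphocytes, was at 14.6, 13.1 and 22.1 against 5.003, 6.67 and 20.96, low in the same 2 labelled knockdown libraries as the B cell markers. Cd40 (log2 difference -0.10), Ngfr (-0.28) and the ectodysplasin gene Eda (0.25, not overlapping by 0.0706) had adjusted p-values of at least 0.489 by limma. Counted in each library's rounding steps, the groups of Eda overlapped.

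Downstream of the receptors, most genes differed little. Among 15 death and survival adaptors 11 had a lower mean, against 49.2% of all tested genes, and the median was -0.10. At the unadjusted threshold 1 of the 15 was lower, against 6.55% of all tested genes. That gene was Daxx, a nuclear protein first described as a Fas partner, at 29.3, 32.0 and 30.8 in wild type, against 23.4, 24.1 and 24.9 in the labelled knockdown libraries (log2 difference -0.34, SE 0.09, limma adjusted p = 0.296). Ripk1, the kinase that decides between survival and death below TNFR1, also did not overlap, at 22.5, 19.7 and 19.9 against 16.4, 18.3 and 18.96 (log2 difference -0.20, limma adjusted p = 0.376). Daxx and Ripk1 were the 2 of the 15 that were lower without overlap, against 9.88% of all tested genes. Birc2 (0.23) and Map3k5 (0.21) had higher means and overlapped.

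The NF-kB kinases and the linear ubiquitin machinery held 7 lower and 11 higher means among 18 tested (median 0.02), and 0 reached the unadjusted threshold in either direction. The smallest p-values there belonged to Rbck1 (log2 difference 0.21), Chuk (0.21), Tab2 (-0.18) and Traf3ip3 (-0.40). Of 13 NF-kB subunits and inhibitors 10 had a lower mean (median -0.06), against 49.2% of all tested genes. At the unadjusted threshold 1 of the 13 was higher, against 8.29% of all tested genes. It was Nfkbiz, an inducible nuclear regulator of NF-kB, at 17.5, 20.6 and 17.0 against 22.1, 27.0 and 25.9 (log2 difference 0.43, SE 0.12, limma adjusted p = 0.296). Its groups did not overlap as deposited but overlapped when counted in each library's rounding steps. Tnip2 (0.20), Tnfaip3 (-0.30) and Nfkbie (-0.26) overlapped.

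Among 16 genes known to be induced by TNF, 11 had a lower mean (median -0.17), against 49.2% of all tested genes. At the unadjusted threshold 3 of the 16 were lower, against 6.55% of all tested genes. These were the chemokine gene Ccl2 (log2 difference -1.02, SE 0.14, limma adjusted p = 0.296), Il6 (-0.43, SE 0.13, 0.297) and Il1b, a cytokine gene of myeloid cells, which was at 14.6, 17.9 and 16.5 against 8.30, 7.66 and 14.97 (-0.67, SE 0.23, 0.302). The groups of Il1b overlapped, as did those of Cxcl10, which had a difference of -0.65. Of the 5 genes of TNF processing, 1 was higher at the unadjusted threshold, against 8.29% of all tested genes. It was Rhbdf1, a cofactor of the sheddase ADAM17 (0.29, limma adjusted p = 0.331), and its groups overlapped. The sheddase gene Adam17 itself (-0.13), Adam10 (-0.12) and the inhibitor gene Timp3 (-0.48) also overlapped.

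**Figure D4:**
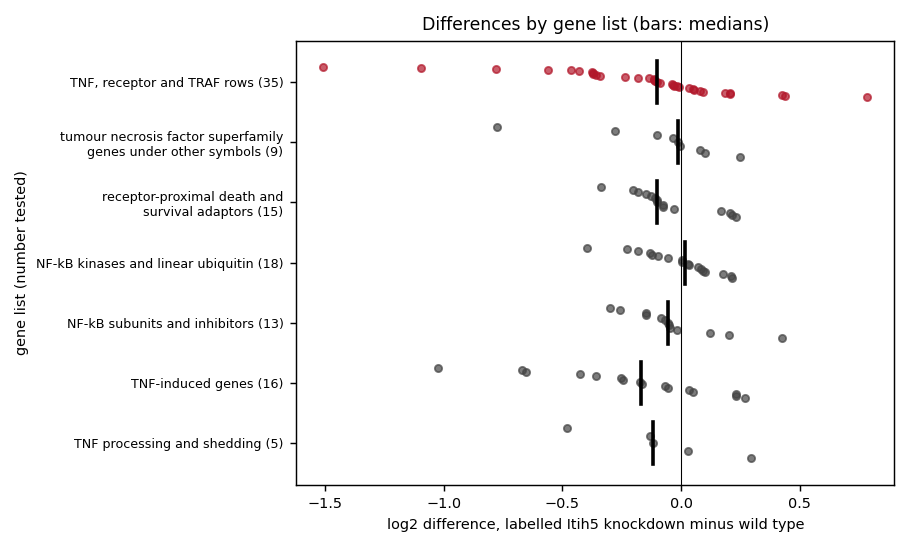
Log2 difference, labelled knockdown minus wild type, of each tested gene (points) and the median (bars) for the 35 members and for 6 lists of genes that act with them. The medians lie between -0.17 (genes induced by TNF) and 0.02 (NF-kB kinases). The members, which are the longest list, spread furthest, from -1.51 (Tnfrsf13c, at 0 in labelled knockdown replicate 2) to 0.78 (Tnfrsf25).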

How the data were processed

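Poly(A)-enriched RNA of 6 libraries was sequenced, with mm10 as build per the submitters' processing notes. Which aligner, quantifier and adjustment between libraries were used is not given in the sources used here. Values deposited by the authors are taken as a score close to TPM: the file name says TPM, but column sums ran from 901558 to 1159651 and low values lay at multiples of a step of 0.889 to 1.163 that differs by library. They are not counts, so depth is unknown and the test planned for TPM was kept. Of 16205 rows, 6 repeats of a symbol were left out (the row with the highest mean was kept). Genes with a mean of at least 1 were fitted as log2(value + 1) with limma 3.58.1 in R 4.3.3 (intensity trend, no covariate, Benjamini-Hochberg over 14025 genes). Fold changes on this scale understate low genes. The script was tested on simulated data. A score is the mean over genes of log2(value + 1) minus the gene's mean.

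The members and lists were chosen with earlier results of these data known. Values are given in every library for members that do not overlap or have an unadjusted p under 0.05, for Tnf, Tnfrsf1a, Tnfrsf1b, Tnfrsf11b, Tnfrsf12a and the TRAF genes, and, beyond the rule, for Tnfrsf11a, Tnfrsf12a's ligand, Tnfsf10, Tnfrsf14 and a few pathway genes, chosen after their values were seen. Of each pathway list up to 4 genes with the smallest p are named, and Ltbr and Fas were added for their level. Marker lists covered macrophages, T and natural killer cells, B cells, neutrophils, fibroblasts, blood endothelium, heart muscle, adipocytes and mesothelium. Motifs and the ratio to Csf1r were also chosen after the values were seen. All 38 members matched GENCODE M21 (mm10), and 9 share exon sequence with another gene.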

Additional observations from a re-analysis of the deposited data

How the results depend on the processing

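Depth is unknown, and rounding limits the 13 tested members with a mean under 5. Of the 5 members lower at an unadjusted p under 0.05, 3 were left once genes averaging under 5 were dropped (7.36% of all genes). That filter itself removed Tnfrsf13c and Tnfsf11 and left 22 members tested. With a heart muscle covariate 0 members were lower at that threshold (2.34% of all genes), and the cause was not tested. Leaving out 1 library at a time gave 1 to 7 such members (2.41% to 8.76% of all genes), 1 to 2 higher ones (4.67% to 9.74%), and 0 to 13 genes of the whole table past the adjusted threshold. The 3 members that were lower without overlap became 6 (17.1% of all genes) after rescaling to a sum of 1000000 and 10 (21.1%) after division by each library's rounding step, a scaling added after the data were seen, which put 22 genes of the whole table past the adjusted threshold. Leaving out 1 library at a time gave 4 to 10 lower (11.8% to 18.4% of all genes) and 1 to 3 higher (16.1% to 21.7%) members without overlap. In both directions fewer libraries leave less room for overlap. The median of the members ran from -0.19 (division by the rounding step) to -0.01 (heart muscle covariate) over the alternatives. In those 2 settings the median over all genes was -0.13 and 0.005. Same-numbered libraries had correlations of 0.056, 0.061 and 0.143, and 2 of 3 wild-type libraries correlated best with their own number. With 3 libraries per group these values cannot settle whether the numbers pair the libraries. The replicate block left 5 lower members, 1 higher member and 0 adjusted calls, as without it.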

Other observations

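The level of Tnfrsf1b stood in a nearly fixed ratio to that of Csf1r, the growth factor receptor gene of macrophages. The ratio was 0.518, 0.564 and 0.518 in wild type, against 0.546, 0.530 and 0.510 in the labelled knockdown libraries, although Tnfrsf1b itself ran from 36.6 to 85.1. Over the 6 libraries the log2 ratio had an SD of 0.0554, place 7 from the smallest of 10879 genes that averaged 5 or more and were never at 0. The 6 genes ahead of it were Aoah, Cybb, Nt5dc2, Rab32, Ctsh and Pla2g15, of which Cybb encodes a phagocyte oxidase subunit, and Sirpa, Igsf6 and Ncf1 followed it. Tnfrsf11a had the next smallest SD among the members (0.116, place 62), then Tnfrsf26 (0.161, place 175), whereas Tnfrsf1a stood at place 3139 and Tnfrsf25 at 10409. The ratio of Tnfrsf1b to the leukocyte gene Ptprc varied more, at 1.28, 1.15 and 0.915 against 0.939, 0.900 and 0.815. Adgre1, another listed macrophage gene, was at 120, 64.7 and 120 against 42.7, 64.4 and 48.9. The steady ratio is thus shown for Csf1r and not for macrophage genes in general. These are descriptions over 6 libraries that share 1 adjustment, with no test, and the reference gene Csf1r was chosen after the values were seen.

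Relative to B cell transcripts Tnfrsf13b was not low in the labelled knockdown libraries. Its ratio to the immunoglobulin gene Ighm was 0.0229, 0.0180 and 0.0173 in wild type, against 0.111, 0.194 and 0.0268 in the labelled knockdown libraries, with no overlap. Its ratio to Cd79a, a part of the B cell receptor, was 0.531, 0.601 and 0.317 against 1.18, 2.28 and 0.428 and overlapped. A ratio shows only that the 2 transcripts differed by unequal amounts.

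Other marker lists gave the following values. Neutrophil genes had a lower mean for 6 of 6 tested, with sums of 44.7 to 131 in wild type, against 32.0 to 76.9 in the labelled knockdown libraries. Fibroblast genes had a lower mean for 5 of 8, with sums of 13369 to 15829 against 9868 to 14997, and blood endothelial genes a higher mean for 7 of 8, with sums of 664 to 697 against 594 to 1350. Adipocyte genes had a lower mean for 6 of 7, with sums of 838 to 1742 against 1037, 230 and 2042, and 4 of them (Cidec, Plin1, Lep and Retn) were at 0 in at least 1 library.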
